A study of Mus musculus with 53 samples.

Results

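The complement system is a set of serum and membrane proteins that tag and damage microbes and debris. Of its genes, 8 are described here. C1ra, C1s1 and Masp1 encode proteases that start the cascade, C4b, C3 and Cfb the components they and their products cleave, and Serping1 and Cd55 inhibitors. They are 8 of the 43432 genes in each deposited RNA table and were chosen by name, as complement components and regulators, with earlier results of these data known. Which measured values entered that choice is not recorded. Folds and p-values below therefore size the differences against the spread between libraries and are not independent evidence for the choice.

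RNA was sequenced from mouse embryonic fibroblasts (MEF) labelled ANP32E-KO (KO) or wild type (WT). ANP32E is a histone chaperone that takes the variant H2A.Z off chromatin. One table holds 3 KO libraries with decitabine (DAC, an inhibitor of DNA methyltransferases), 2 KO libraries with DMSO, 3 WT libraries with DAC and 2 WT libraries with DMSO, in FPKM. The other holds 3 libraries each of KO with an siRNA labelled H2AZ, KO with an siRNA labelled NT, WT with H2AZ siRNA and WT with NT siRNA, in RPKM. The labels give no dose, time, strain, sex or clone number. They name biological replicates, and only replicates for KO with H2AZ siRNA. Nothing says whether these were separate cultures, so p-values measure the spread between these samples, which may be technical. The other 31 of the 53 samples, CUT&Tag libraries, were not analysed here.

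Complement is switched on by the classical, the lectin and the alternative pathway, and all of them build enzymes, the C3 convertases, that cleave C3. In the classical pathway C1r activates C1s, and C1s cleaves C4 and C2 to form the convertase. In the alternative pathway factor B joins cleaved C3. The liver makes most of the circulating proteins, while fibroblasts and mesothelial cells make many of them locally, and inflammatory cytokines raise their transcription. C1 inhibitor blocks C1r, C1s and the lectin pathway proteases, and CD55, the decay-accelerating factor, takes convertases apart on the cell surface.

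Reads per library, recovered from the values, were 27503472 to 36910532 for DAC and DMSO and 31928320 to 47172427 for the siRNA groups. Anp32e was 4.87 to 7.48 FPKM in KO and 14.0 to 17.2 FPKM in WT, and 4.36 to 6.12 RPKM in KO and 16.9 to 21.4 RPKM in WT. It was thus lower in every KO library but not absent. H2afz, which encodes an H2A.Z protein, was 16.6 to 30.4 RPKM with H2AZ siRNA and 184 to 203 RPKM with NT siRNA. Y-linked genes were detected in all KO libraries and near 0 in all WT libraries, and Xist was 28.5 to 44.4 FPKM in KO with DAC, 0.579 to 0.923 FPKM in KO with DMSO, 136 to 210 FPKM in WT with DAC and 170 to 181 FPKM in WT with DMSO. With the siRNAs Xist was lower in WT, at 4.12 to 5.54 RPKM with H2AZ siRNA and 4.22 to 6.33 RPKM with NT siRNA. It was at most 0.00144 RPKM in KO there. The genotypes thus came from cells of different sex-linked expression, which cannot be told apart from the knockout, and KO with DAC carried both Y-linked RNA and Xist. KO DAC replicate 1, WT DAC replicate 3, KO NT replicate 1 and WT NT replicate 1 stood apart from the others of their groups in an earlier account of these data, and results are given without the pair of a table where that changes a call.

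In DMSO, KO cells held far more C3 and Cd55 RNA than WT cells, by 29.5-fold and 33.2-fold in mean FPKM, and 2.8-fold more C1s1 and 2.47-fold more Serping1. DAC moved C3 in opposite directions in the genotypes: the mean fell to 8.91 FPKM in KO with DAC, against 81.6 FPKM in KO with DMSO, and stood at 11.7 FPKM in WT with DAC, against 2.77 FPKM in WT with DMSO. With DAC, C4b and C1ra were lower in KO than in WT and Cd55 remained higher. C3 and Serping1 were slightly lower there too, calls that were lost with only the DAC libraries in the fit (limma adjusted p = 0.067 and 0.056) and without the libraries that stand apart (limma adjusted p = 0.066 and 0.058). In the siRNA table C3, C1ra, C1s1, Serping1 and Cd55 were higher in KO than in WT with either siRNA. C3, Serping1 and Cd55 passed the filter on low values there through KO libraries alone, which fixed their direction. Of the 6 genes tested there, the H2AZ siRNA raised C3 (1.49-fold) and Masp1 (1.11-fold) and lowered Serping1 (to 0.673 of NT) in KO, and raised Masp1 (1.12-fold) and lowered C1s1 (to 0.577 of NT) in WT. Without the libraries that stand apart, the calls in WT and those of Masp1 and Serping1 in KO were lost. The calls in WT were also lost whichever WT library was left out. That of C3 in KO was lost with a pseudocount of 0.1. Masp1 ran the other way to most of the family in part of the comparisons. It was lower in KO with DMSO and with either siRNA, and rose with DAC in KO. In WT it rose with DAC too, as did C3 and Serping1.

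The RefSeq table of promoters (GRCm38.p6, 250 bases before to 50 after a gene start) matched 4 of the 8 genes. C1ra lies at chr6:124512371-124512670 on the plus strand and C1s1 at chr6:124542310-124542609 on the minus strand. C3 lies at chr17:57228087-57228386 and Cd55 at chr1:130462695-130462994, both on the minus strand, the Cd55 window inside the RefSeq span of its gene. They are printed 5′ to 3′ on the gene's strand. CpG pairs are shown because DNA methyltransferases, which DAC inhibits, act on them, and these genes changed with DAC in KO. Capitals mark each CpG pair.
C1ra: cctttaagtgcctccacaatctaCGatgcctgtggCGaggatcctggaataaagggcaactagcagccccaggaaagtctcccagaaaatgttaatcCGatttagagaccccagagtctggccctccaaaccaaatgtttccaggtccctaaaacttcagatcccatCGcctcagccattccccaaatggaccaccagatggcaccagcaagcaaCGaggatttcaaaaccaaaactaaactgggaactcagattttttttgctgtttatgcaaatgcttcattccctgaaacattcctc
C1s1: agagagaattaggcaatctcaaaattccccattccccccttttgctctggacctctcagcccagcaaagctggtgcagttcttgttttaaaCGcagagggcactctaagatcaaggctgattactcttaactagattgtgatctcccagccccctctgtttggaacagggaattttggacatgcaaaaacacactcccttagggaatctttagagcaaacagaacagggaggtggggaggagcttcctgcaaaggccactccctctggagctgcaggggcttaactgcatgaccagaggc
C3: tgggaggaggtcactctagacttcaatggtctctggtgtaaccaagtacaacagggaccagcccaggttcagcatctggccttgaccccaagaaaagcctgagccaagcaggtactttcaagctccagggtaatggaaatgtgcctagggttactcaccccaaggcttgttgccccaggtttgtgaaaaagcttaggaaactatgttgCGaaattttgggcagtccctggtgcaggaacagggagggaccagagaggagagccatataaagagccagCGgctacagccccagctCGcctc
Cd55: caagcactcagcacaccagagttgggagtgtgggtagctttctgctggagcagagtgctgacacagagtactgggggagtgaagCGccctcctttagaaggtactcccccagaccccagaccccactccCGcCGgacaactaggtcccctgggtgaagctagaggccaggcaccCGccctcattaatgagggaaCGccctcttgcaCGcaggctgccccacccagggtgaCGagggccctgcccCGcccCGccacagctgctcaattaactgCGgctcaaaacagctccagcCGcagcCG
Of these windows Cd55 held 12 CpG pairs, C1ra 5, C3 3 and C1s1 1, against a median of 7.0 over 32851 windows of the same table. C1s1 has a second listed start at chr6:124542272-124542571, whose overlapping window also held 1 CpG pair. The Cd55 count is that of an internal start, since on the minus strand the RefSeq span of the gene begins at position 130465009. The part of CpG pairs in the responses to DAC was not tested. DNA methylation was not measured in the files used here.

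Short letter patterns were searched on both strands of these windows. The STAT-like pattern TTCNNNGAA matched C1ra as TTCCCTGAA 32 bases after the start. The NF-kB-like pattern GGNNNTTCC matched C1s1 as GGAGCTTCC 12 bases before the start, and matched Cd55 on its other strand as GGAACGCCC 60 bases before the start. The interferon-response-like pattern GAAANNGAA matched none of the 4, and C3 held none of the 3 patterns. In all windows of the table the shares holding them were 8.3% for TTCNNNGAA, 18.5% for GGNNNTTCC and 8.56% for GAAANNGAA, and none of the matches overlapped another. A match is a string of letters, not a shown binding site.

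C1ra (ENSMUSG00000055172, chr6:124512621-124523440 in RefSeq GRCm38.p6) encodes C1r, the protease that activates C1s. It had 13.1, 14.1 and 14.4 FPKM in KO with DAC and 33.5 and 34.96 FPKM in KO with DMSO. It had 24.1, 22.7 and 21.9 FPKM in WT with DAC and 33.6 and 40.3 FPKM in WT with DMSO. The DMSO libraries of KO and WT overlapped, and each DAC group lay below both of them without overlap. DAC lowered C1ra in KO cells (log2 fold change -1.25 ± 0.08 SE, limma adjusted p = 5.3e-06) and in WT cells (-0.66 ± 0.08 SE, limma adjusted p = 0.00052), and more in KO (difference -0.58 ± 0.12 SE, limma adjusted p = 0.0071). KO with DAC was below WT with DAC (-0.68 ± 0.07 SE, limma adjusted p = 0.00033), while KO with DMSO did not pass against WT with DMSO (-0.10 ± 0.09 SE, limma adjusted p = 0.4). These and all later log2 fold changes are on log2 of the value plus 1, which understates the change of low genes.

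In the siRNA table C1ra had 4.9, 5.08 and 6.99 RPKM in KO with H2AZ siRNA and 7.41, 8.38 and 8.5 RPKM in KO with NT siRNA. It had 2.87, 4.27 and 3.35 RPKM in WT with H2AZ siRNA and 5.42, 3.42 and 3.73 RPKM in WT with NT siRNA. KO exceeded WT without overlap under each siRNA, by 1.61-fold with H2AZ siRNA (log2 fold change 0.56 ± 0.16 SE, limma adjusted p = 0.0086) and 1.93-fold with NT siRNA (0.83 ± 0.16 SE, limma adjusted p = 0.00076). The 3 KO libraries with H2AZ siRNA all lay below the 3 with NT siRNA, a difference just outside the threshold (-0.46 ± 0.16 SE, limma adjusted p = 0.051). It passed with limma-voom (-0.53, adjusted p = 0.027), without KO H2AZ replicate 3 (-0.60, limma adjusted p = 0.022), without WT H2AZ replicate 2 or WT NT replicate 1 (limma adjusted p = 0.045 and 0.025) and without the libraries that stand apart (-0.52, limma adjusted p = 0.029).

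C1s1 (ENSMUSG00000038521, chr6:124530344-124542392) encodes C1s, the protease that cleaves C4 and C2, and lies beside C1ra. It had 11.7, 13.9 and 15.1 FPKM in KO with DAC and 45.3 and 45.6 FPKM in KO with DMSO. It had 13.6, 13.9 and 13.5 FPKM in WT with DAC and 14.8 and 17.7 FPKM in WT with DMSO. KO with DMSO stood alone, and the other 3 groups lay between 11.7 and 17.7 FPKM. KO exceeded WT in DMSO (log2 fold change 1.43 ± 0.11 SE, limma adjusted p = 1.6e-05) and not with DAC (-0.02 ± 0.09 SE, limma adjusted p = 0.92). DAC lowered C1s1 in KO (-1.68 ± 0.10 SE, limma adjusted p = 3.9e-06), did not pass in WT (-0.23 ± 0.10 SE, limma adjusted p = 0.14), and the effects differed (-1.45 ± 0.15 SE, limma adjusted p = 0.00018).

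With the siRNAs C1s1 had 5.44, 5.95 and 8.88 RPKM in KO with H2AZ siRNA and 7.4, 7.39 and 7.79 RPKM in KO with NT siRNA. It had 1.12, 1.55 and 1.47 RPKM in WT with H2AZ siRNA and 3.03, 2.09 and 2.04 RPKM in WT with NT siRNA. All 6 KO libraries lay above all 6 WT libraries, 4.89-fold in the mean with H2AZ siRNA (log2 fold change 1.68 ± 0.15 SE, limma adjusted p = 3.4e-06) and 3.15-fold with NT siRNA (1.34 ± 0.15 SE, limma adjusted p = 1.7e-05). The H2AZ siRNA lowered C1s1 in WT without overlap (-0.50 ± 0.15 SE, limma adjusted p = 0.045). This call was lost when any 1 of the 6 WT libraries was left out (limma adjusted p between 0.058 and 0.15), or KO H2AZ replicate 2 or any KO NT library (limma adjusted p between 0.051 and 0.06). It was lost without the libraries that stand apart too. In KO the groups overlapped and the change did not pass (-0.16 ± 0.15 SE, limma adjusted p = 0.47).

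Because C1r and C1s work in a complex with equal numbers of each, their levels were also set against each other, a ratio chosen after the values were seen. C1s1 over C1ra was 0.893 to 1.05 in KO with DAC, 1.3 to 1.35 in KO with DMSO, 0.567 to 0.615 in WT with DAC and 0.439 to 0.441 in WT with DMSO. Among siRNA libraries it was 1.11 to 1.27 in KO with H2AZ siRNA, 0.881 to 0.999 in KO with NT siRNA, 0.362 to 0.44 in WT with H2AZ siRNA and 0.549 to 0.61 in WT with NT siRNA. In both tables every KO library lay above every WT library, also with DAC, where C1s1 itself did not pass between the genotypes. Reads shared with the near copies C1rb and C1s2 could enter both levels. With DAC the ratio lay lower than with DMSO in KO and higher in WT, and with H2AZ siRNA it lay higher than with NT siRNA in KO and lower in WT, each time without overlap between libraries. No test was made of the ratio.

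**Figure D1:**
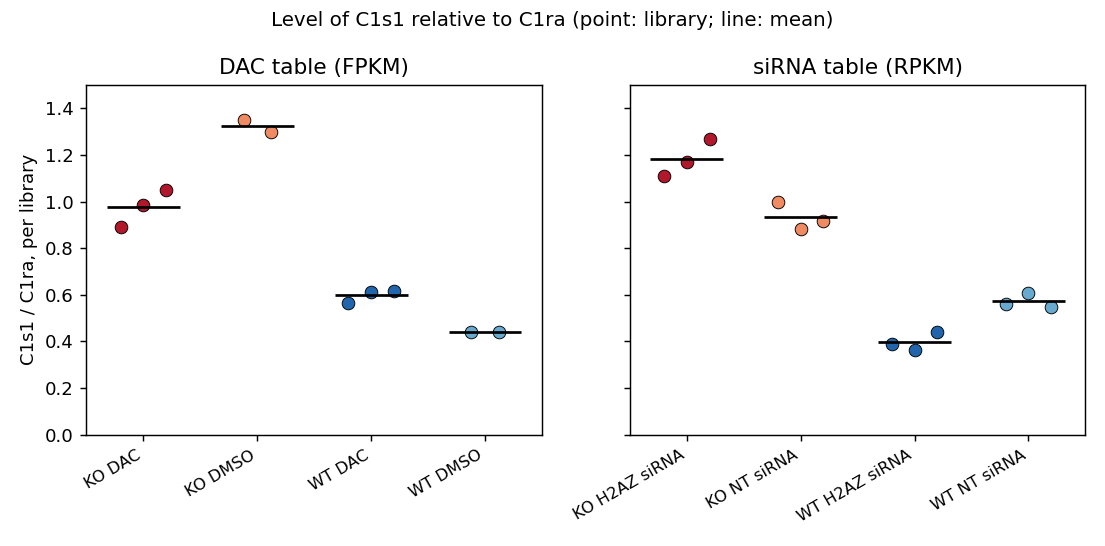
Ratio of the C1s1 level to the C1ra level in each library (points; black lines are group means), in FPKM for the DAC table and RPKM for the siRNA table. The KO libraries lie at 0.881 or above and the WT libraries at 0.615 or below.

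Masp1 (ENSMUSG00000022887, chr16:23451785-23521240) encodes proteases of the lectin pathway, and its gene-level value does not separate its splice products. It had 23.8, 30.6 and 32.1 FPKM in KO with DAC and 7.06 and 7.49 FPKM in KO with DMSO. It had 36.2, 34.7 and 23.2 FPKM in WT with DAC and 12.6 and 12.2 FPKM in WT with DMSO. The DAC groups overlapped each other and lay wholly above both DMSO groups. DAC raised Masp1 3.96-fold in KO (log2 fold change 1.84 ± 0.19 SE, limma adjusted p = 7.4e-05) and 2.53-fold in WT (1.25 ± 0.19 SE, limma adjusted p = 0.0015), and the difference of the effects did not pass (0.59 ± 0.26 SE, limma adjusted p = 0.15). Without KO DAC replicate 1 and WT DAC replicate 3, the lowest libraries of their groups, it passed (0.52, limma adjusted p = 0.0023), as did KO against WT with DAC (-0.17, limma adjusted p = 0.047, against -0.10 ± 0.17 SE, limma adjusted p = 0.71, with all libraries). KO with DMSO was at 0.586 of WT with DMSO (-0.69 ± 0.21 SE, limma adjusted p = 0.024). This call was lost when any 1 of the 4 DMSO libraries was left out (limma adjusted p between 0.073 and 0.1).

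Of the 8 genes Masp1 had the highest RPKM in the siRNA table, at 17.6, 15.6 and 16.7 RPKM in KO with H2AZ siRNA and 15.1, 14.5 and 15.1 RPKM in KO with NT siRNA. It had 23.1, 23.8 and 24.1 RPKM in WT with H2AZ siRNA and 21.5, 21.2 and 20.8 RPKM in WT with NT siRNA. None of the 4 groups overlapped. Masp1 was lower in KO, at 0.7 of WT with H2AZ siRNA (log2 fold change -0.49 ± 0.05 SE, limma adjusted p = 5.2e-06) and 0.703 of WT with NT siRNA (-0.48 ± 0.05 SE, limma adjusted p = 5.2e-06). The H2AZ siRNA raised it slightly, 1.11-fold in KO (0.15 ± 0.05 SE, limma adjusted p = 0.037) and 1.12-fold in WT (0.15 ± 0.05 SE, limma adjusted p = 0.048). Both of these small changes missed the threshold without the libraries that stand apart (limma adjusted p = 0.055 in KO and 0.071 in WT). The change in WT did so without any 1 of the 6 WT libraries (limma adjusted p between 0.073 and 0.14), and that in KO without any 1 of 5 of the 6 KO libraries (limma adjusted p between 0.059 and 0.13), KO H2AZ replicate 2 being the exception.

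C4b (ENSMUSG00000073418, chr17:34728139-34743902) encodes C4, the substrate of C1s that forms part of the classical C3 convertase. It had 1.01, 1.085 and 1.375 FPKM in KO with DAC and 2.78 and 3.56 FPKM in KO with DMSO. It had 2.81, 2.92 and 3.01 FPKM in WT with DAC and 3.3 and 4.55 FPKM in WT with DMSO. KO with DAC stood below all other libraries, and the other 3 groups overlapped in part. C4b was lower in KO than in WT with DAC (log2 fold change -0.86 ± 0.12 SE, limma adjusted p = 0.0014) and not called in DMSO (-0.24 ± 0.15 SE, limma adjusted p = 0.24). DAC lowered it in KO (-0.95 ± 0.13 SE, limma adjusted p = 0.00051) and did not pass in WT (-0.32 ± 0.13 SE, limma adjusted p = 0.11), with a difference near the threshold (-0.63 ± 0.19 SE, limma adjusted p = 0.043). This difference was lost when KO DAC replicate 1 or 2, KO DMSO replicate 2, WT DMSO replicate 1 or any WT library with DAC was left out (limma adjusted p between 0.067 and 0.17). In the siRNA table C4b had 0.05 to 0.225 RPKM, 13 to 53 reads a library, and was not tested.

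C3 (ENSMUSG00000024164, chr17:57203967-57228136) encodes the component on which all pathways converge. It had 7.59, 8.77 and 10.4 FPKM in KO with DAC (1199 to 1969 reads) and 79.4 and 83.8 FPKM in KO with DMSO (11236 and 13374 reads). It had 11.2, 11.6 and 12.4 FPKM in WT with DAC (1870 to 2041 reads) and 2.78 and 2.76 FPKM in WT with DMSO (438 and 446 reads). No library of any group overlapped another group, and the order was KO with DMSO, WT with DAC, KO with DAC, WT with DMSO. Among genes above 0, C3 stood at percentile 98.4 in KO with DMSO and at percentile 56.3 in WT with DMSO.

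C3 was higher in KO in DMSO (log2 fold change 4.45 ± 0.12 SE, limma adjusted p = 2.9e-08) and slightly lower in KO with DAC (-0.37 ± 0.09 SE, limma adjusted p = 0.023). The second of these calls was lost with only the DAC libraries in the fit (limma adjusted p = 0.067), without KO DAC replicate 2, WT DAC replicate 2 or WT DAC replicate 3 (limma adjusted p between 0.056 and 0.066) and without the libraries that stand apart (-0.24, limma adjusted p = 0.066). DAC lowered C3 in KO (-3.07 ± 0.11 SE, limma adjusted p = 1.6e-07) and raised it 4.22-fold in WT (1.76 ± 0.11 SE, limma adjusted p = 1.5e-05). The difference between the DAC effects was the largest of the 8 genes (-4.83 ± 0.15 SE, limma adjusted p = 7.8e-07).

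Levels of C3 in the siRNA table were low in every group. C3 passed the filter there through the KO libraries alone, which fixed the direction of KO against WT. It had 1.83, 2.14 and 2.15 RPKM in KO with H2AZ siRNA (397 to 521 reads) and 1.11, 1.47 and 1.53 RPKM in KO with NT siRNA (222 to 359 reads). It had 0.165, 0.15 and 0.207 RPKM in WT with H2AZ siRNA (32 to 36 reads) and 0.312, 0.148 and 0.204 RPKM in WT with NT siRNA (33 to 71 reads). All KO libraries lay above all WT libraries, 11.7-fold in the mean with H2AZ siRNA (log2 fold change 1.37 ± 0.08 SE, limma adjusted p = 1.5e-07) and 6.2-fold with NT siRNA (0.95 ± 0.08 SE, limma adjusted p = 2.9e-06). The H2AZ siRNA raised C3 1.49-fold in KO (0.36 ± 0.08 SE, limma adjusted p = 0.0097) and did not pass in WT (-0.05 ± 0.08 SE, limma adjusted p = 0.72). With a pseudocount of 0.1 the change in KO was 0.55 and missed the threshold (limma adjusted p = 0.07). The difference of these effects did not pass (0.42 ± 0.12 SE, limma adjusted p = 0.35).

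Cfb (ENSMUSG00000090231, chr17:34856374-34862514) encodes factor B, the protease of the alternative C3 convertase, and was barely detected. It had 0.0461 to 0.153 FPKM in KO with DAC (4 to 16 reads), 0.206 and 0.285 FPKM in KO with DMSO, 0.142 to 0.331 FPKM in WT with DAC and 0.219 and 0.225 FPKM in WT with DMSO. The siRNA libraries held 0 to 7 reads. The libraries of KO with DAC lay below those of KO with DMSO without overlap, and those of WT with DAC and with DMSO overlapped. Cfb failed the filter on low values in both tables. In a fit with no filter, DAC against DMSO in KO gave -0.18 ± 0.07 SE (limma adjusted p = 0.1, unadjusted 0.032) and KO against WT with DAC gave -0.16 ± 0.06 SE (limma adjusted p = 0.16, unadjusted 0.035), and Cfb was not called in any comparison.

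Serping1 (ENSMUSG00000023224, chr2:84765360-84775444) encodes C1 inhibitor. It had 6.44, 6.91 and 6.93 FPKM in KO with DAC and 12.3 and 12.5 FPKM in KO with DMSO. It had 8.83, 7.69 and 9.63 FPKM in WT with DAC and 4.95 and 5.08 FPKM in WT with DMSO. No group overlapped another, and the order was the same as for C3. Serping1 was higher in KO in DMSO (log2 fold change 1.16 ± 0.09 SE, limma adjusted p = 1.6e-05) and lower in KO with DAC (-0.32 ± 0.08 SE, limma adjusted p = 0.017). DAC lowered it in KO (-0.79 ± 0.08 SE, limma adjusted p = 9.7e-05) and raised it 1.74-fold in WT (0.69 ± 0.08 SE, limma adjusted p = 5e-04), a difference of -1.48 ± 0.12 SE (limma adjusted p = 5.2e-05). The call with DAC was lost with only the DAC libraries in the fit (limma adjusted p = 0.056), without WT DAC replicate 1 (limma adjusted p = 0.055) and without the libraries that stand apart (-0.22, limma adjusted p = 0.058).

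Serping1 in the siRNA libraries had 1.63, 1.7 and 2.85 RPKM in KO with H2AZ siRNA and 2.99, 2.87 and 3.32 RPKM in KO with NT siRNA. It had 0.687, 0.78 and 0.647 RPKM in WT with H2AZ siRNA and 0.874, 0.673 and 0.62 RPKM in WT with NT siRNA. All KO libraries lay above all WT libraries, 2.92-fold in the mean with H2AZ siRNA (log2 fold change 0.82 ± 0.13 SE, limma adjusted p = 0.00017) and 4.24-fold with NT siRNA (1.24 ± 0.13 SE, limma adjusted p = 8.1e-06). The H2AZ siRNA lowered Serping1 in KO (-0.43 ± 0.13 SE, limma adjusted p = 0.028), where 2 libraries had 1.63 and 1.7 RPKM and the other 2.85 RPKM. That call was lost without KO H2AZ replicate 1 or 2 or KO NT replicate 1 or 3 (limma adjusted p between 0.054 and 0.11), with median centring (-0.34, limma adjusted p = 0.059) and without the libraries that stand apart (-0.44, limma adjusted p = 0.052). In WT the change did not pass (-0.01 ± 0.13 SE, limma adjusted p = 0.96). Only KO libraries brought Serping1 through the filter in the siRNA table, so the direction of KO against WT was fixed.

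Cd55 (ENSMUSG00000026399, chr1:130429798-130465009) encodes decay-accelerating factor, which protects the cell's own surface. It had 12.8, 10.5 and 9.33 FPKM in KO with DAC (1589 to 1902 reads) and 105 and 97.5 FPKM in KO with DMSO (14020 and 14694 reads). It had 2.01, 2.02 and 3.58 FPKM in WT with DAC (316 to 556 reads) and 2.98 and 3.11 FPKM in WT with DMSO (443 and 475 reads). Both KO groups lay above all WT libraries, and the WT groups overlapped. The 4.29-fold higher mean in KO with DAC (log2 fold change 1.76 ± 0.17 SE, limma adjusted p = 0.00017) was smaller than the 33.2-fold in DMSO (4.66 ± 0.20 SE, limma adjusted p = 5.1e-07). DAC lowered Cd55 in KO (-3.12 ± 0.19 SE, limma adjusted p = 3.1e-06) and did not pass in WT (-0.22 ± 0.19 SE, limma adjusted p = 0.43), a difference of -2.90 ± 0.26 SE (limma adjusted p = 1e-04). In WT with DAC replicate 3 was the high library, and without it Cd55 was lower with DAC in WT (-0.42, limma adjusted p = 0.036).

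Among the siRNA libraries Cd55 had 3.12, 3.03 and 3.48 RPKM in KO with H2AZ siRNA and 2.93, 2.44 and 2.95 RPKM in KO with NT siRNA. It had 0.542, 0.374 and 0.555 RPKM in WT with H2AZ siRNA and 0.465, 0.313 and 0.481 RPKM in WT with NT siRNA. KO lay above WT without overlap, 6.55-fold in the mean with H2AZ siRNA (log2 fold change 1.5 ± 0.08 SE, limma adjusted p = 6.2e-08) and 6.62-fold with NT siRNA (1.41 ± 0.08 SE, limma adjusted p = 9.6e-08). The H2AZ siRNA did not pass in KO (0.16 ± 0.08 SE, limma adjusted p = 0.19) or in WT (0.07 ± 0.08 SE, limma adjusted p = 0.62). Cd55 too passed the filter through KO libraries alone in the siRNA table, which fixed the direction of KO against WT.

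**Figure D2:**
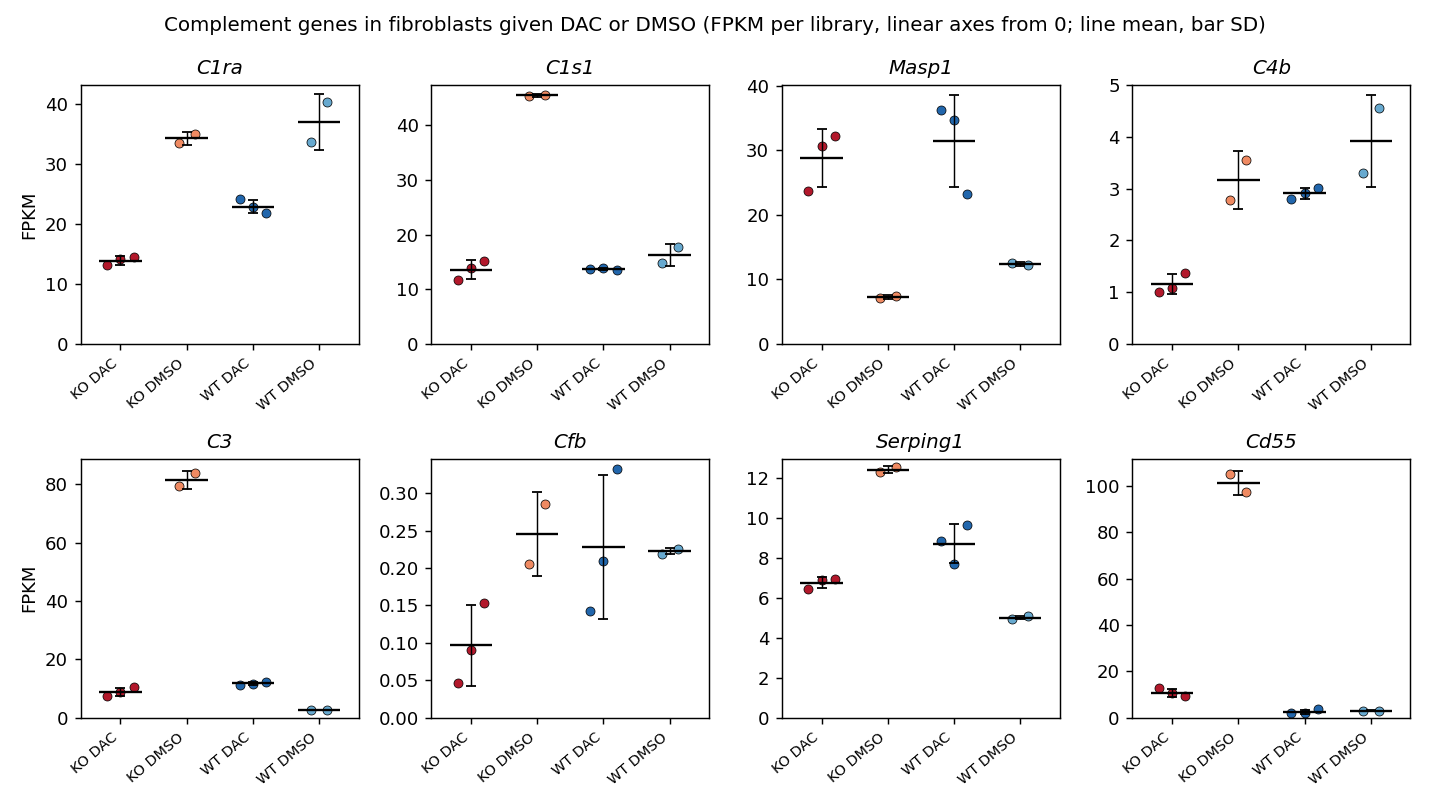
FPKM of the 8 genes in each library of the DAC table (points; lines are group means and bars SD; n = 3 with DAC and n = 2 with DMSO; linear axes from 0). C3 and Cd55 stand at 79.4 to 105 FPKM in KO with DMSO and at 12.8 FPKM or less elsewhere, and Masp1 is highest in the DAC groups.

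**Figure D3:**
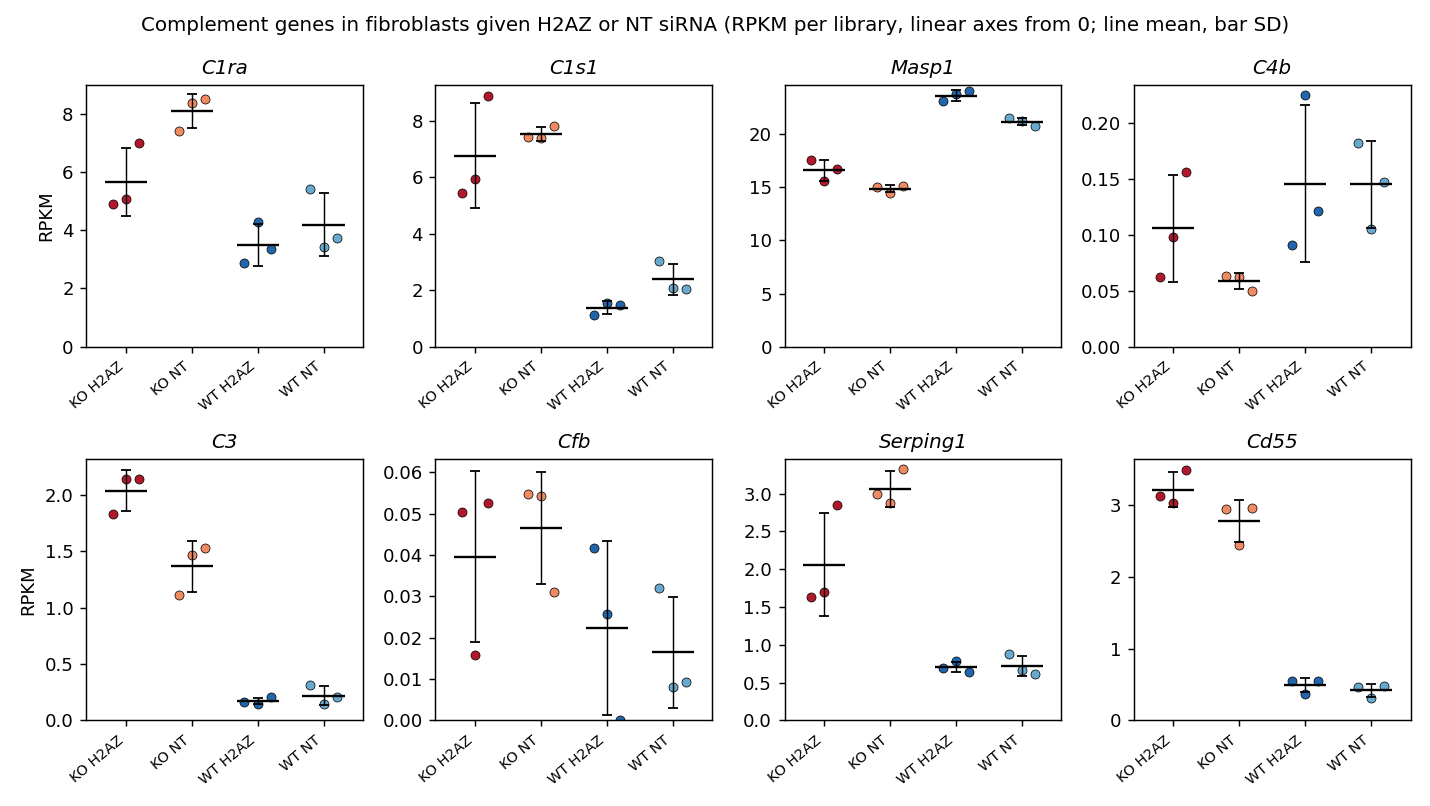
RPKM of the 8 genes in each library of the siRNA table (points; lines are group means and bars SD; n = 3 a group; linear axes from 0). C3, C1s1, Serping1 and Cd55 are higher in all 6 KO libraries than in any WT library, and Masp1 is lower in all 6.

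Counted per comparison, 7 of the 8 genes were tested for DAC and 6 for the siRNAs. Cfb failed the filter in both, and C4b in the siRNA table. In the siRNA table C3, Serping1 and Cd55 passed only through the 6 KO libraries, so a difference was bound to show and their counts there carry no weight of their own. In DMSO 4 of 7 were higher and 1 lower in KO, where 19.6% and 22.9% of all 16435 tested genes were called higher and lower. With DAC 1 was higher and 4 lower in KO, beside 11.1% and 11.6% of all genes. DAC raised 1 and lowered 6 in KO, beside 23.7% and 21.6%, and raised 3 and lowered 1 in WT, beside 14.5% and 13.8%. The DAC effect was lower in KO than in WT for 6, beside 11.7% of all genes, and Masp1 was not called, beside 12.4% called higher.

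For KO against WT with either siRNA, 5 of 6 were higher and 1 lower, but C3, Serping1 and Cd55 entered through the KO libraries alone. Of the others C1ra and C1s1 were higher and Masp1 lower. Among all 12668 tested genes 20.2% were higher and 42.7% lower with H2AZ siRNA, and 23.7% and 40.4% with NT siRNA. The H2AZ siRNA raised 2 and lowered 1 in KO, beside 6.56% and 19% of all genes, and raised 1 and lowered 1 in WT, beside 4.88% and 10.4%. The difference of the siRNA effects passed for 0 of the 6, beside 0.00789% called higher and 0% called lower, and C3 and Serping1 had an unadjusted limma p under 0.05 (0.0048 and 0.039). limma-voom on recovered reads also called 0. The median log2 fold change of the tested members was 1.16 in DMSO and -0.32 with DAC for KO against WT, beside medians of -0.04 and -0.00 over all genes. It was -1.25 for DAC in KO and -0.22 for DAC in WT, beside 0.01 and -0.01. No median is set against all genes for KO against WT in the siRNA table, since C3, Serping1 and Cd55 entered through KO alone. The comparisons of a table share control libraries, so they are not separate evidence of one another.

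**Figure D4:**
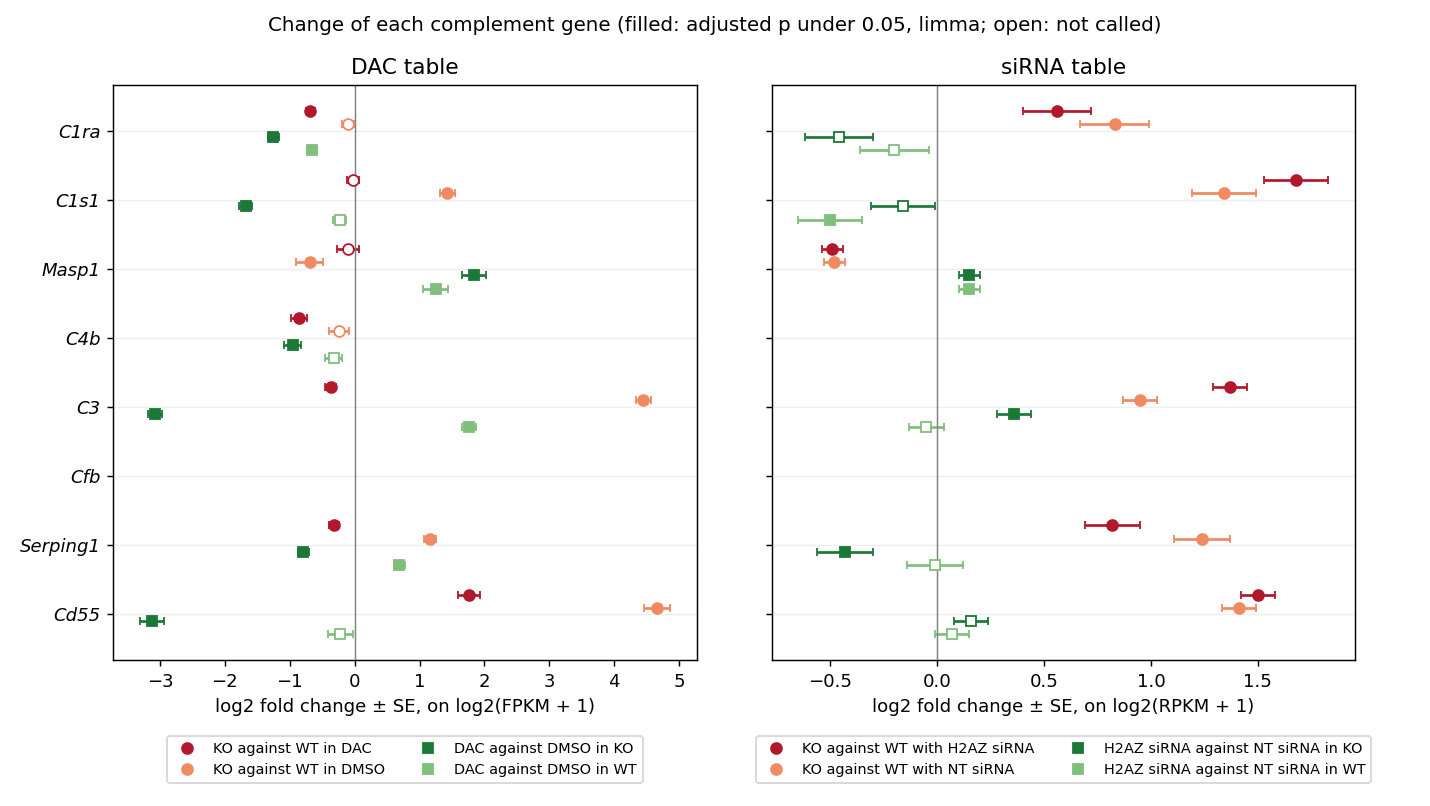
log2 fold change (± SE, on log2 of the value plus 1) of each gene for KO against WT (circles) and treatment against control (squares), filled where the limma adjusted p was under 0.05. In the DAC table C3 runs from -3.07 to 4.45. Masp1 lies opposite to most others there for KO against WT in DMSO and for DAC in KO. In the siRNA table the KO-against-WT circles lie right of 0 except for Masp1. C3, Serping1 and Cd55 passed the filter there through KO libraries alone. Cfb in both panels and C4b in the siRNA panel were not tested.

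Levels across libraries, centred within each table, were most alike between C1s1 and Serping1 (Pearson r = 0.87) and between C3 and Cd55 (r = 0.86) over the 22 libraries. The neighbours C1ra and C1s1 had r = 0.75, C4b and Cfb had r = 0.75, and Masp1 had negative values with all 7 others, from -0.72 to -0.42. These describe libraries that share groups and carry no test. Of 5983 genes with a mean of at least 5 in a group of each table, those most like C3 were Olfml2b (0.968), Slc9a3r1 (0.968) and Cystm1 (0.965), and those most like Cd55 were Marcksl1 (0.981), Creg1 (0.977) and Alad (0.972). Those most like C1s1 were Gmpr (0.960), Fam234a (0.951) and Arhgap18 (0.947), and those most like Masp1 were Tubb6 (0.975), Ppa1 (0.966) and Pa2g4 (0.966). C1ra was most like Rgl1 (0.937), Serping1 like Bhlhe40 (0.919), C4b like Btd (0.915) and Cfb like Rgl1 (0.730).

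Some members have near copies whose reads may be split between the genes, since no source used here says how reads matching more than 1 gene were counted. C1rb was at 33.6 to 38.6% of the C1ra level over the DAC and DMSO libraries and at 33.0 to 45.2% over the siRNA libraries. C1s2 was at 5.22% of C1s1 and Cd55b at 4.63% of Cd55 on average over the DAC libraries, and at 11.2% and 13.7% over the siRNA libraries. C4a was at 14.0% of C4b with DAC or DMSO and at 94.2% over the siRNA libraries, where both are low. Cd55b had the same order of groups as Cd55 in the DAC table, with 0.439 FPKM in KO with DAC, 3.83 FPKM in KO with DMSO, 0.104 FPKM in WT with DAC and 0.21 FPKM in WT with DMSO. The values of C1ra, C1s1, C4b and Cd55 are uncertain to that extent.

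A further 53 complement genes were listed, with 15 of them tested for DAC and 8 for the siRNAs. In DMSO 5 were higher in KO and 5 lower, beside 19.6% and 22.9% of all genes. Of those higher, all but Clu would have failed the filter without the KO libraries with DMSO. Their direction here, for DAC in KO and for the difference of DAC effects was thus bound up with the filter. Clu, the terminal pathway inhibitor clusterin, averaged 30.3 FPKM in KO and 9.15 FPKM in WT (log2 fold change 1.63 ± 0.10 SE, limma adjusted p = 3.9e-06). Cd59a, which blocks the membrane attack complex, had 0.0803 and 0.694 FPKM in KO and 1.51 and 1.7 FPKM in WT. It reached 1 FPKM or 1 RPKM in WT libraries alone in both tables, so its call as lower in KO was bound up with the filter. DAC raised 3 and lowered 6 of the 15 in KO, beside 23.7% and 21.6% of all genes. In WT it raised 2 and lowered 2, beside 14.5% and 13.8%. With DAC 5 were higher and 1 lower in KO, beside 11.1% and 11.6%. The DAC effect was higher in KO than in WT for 3 and lower for 6, beside 12.4% and 11.7%.

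C3ar1, the receptor of the C3 fragment C3a, had 1.99 to 2.53 FPKM in KO with DAC and 0.0823 and 0.144 FPKM in KO with DMSO. It had 1.04 to 1.37 FPKM in WT with DAC and 0.212 and 0.369 FPKM in WT with DMSO. C3ar1 reached 1 FPKM in DAC libraries alone and so entered the test only through the groups where it is high, which fixes the direction of its calls. The receptor gene C5ar1 stayed at or below 0.0243 FPKM and 0.03 RPKM in every library. With either siRNA 5 of the 8 were higher in KO and 3 lower. Over all genes 20.2% were higher and 42.7% lower with H2AZ siRNA, and 23.7% and 40.4% with NT siRNA. Itgb2, among those higher, reached 1 RPKM in KO libraries alone, so its direction was bound up with the filter. Clu averaged 4.57 RPKM in KO and 0.984 RPKM in WT with H2AZ siRNA (1.49 ± 0.10 SE, limma adjusted p = 2.4e-07). Cd59a had 0.246 to 0.328 RPKM in KO and 3.59 to 4.27 RPKM in WT with H2AZ siRNA. The H2AZ siRNA raised 2 and lowered 2 of the 8 in KO, beside 6.56% and 19% of all genes. In WT it raised 1 and lowered 1, beside 4.88% and 10.4%. C1rl, among those lowered in both genotypes, reached 1 RPKM in NT siRNA libraries alone. It had 1.46 to 1.7 RPKM in KO and up to 1.12 RPKM in WT there, and would have failed the filter without the KO libraries. Its fall in KO and its higher level in KO with NT siRNA were thus bound up with the filter. The other 38 and 45 genes failed the filter, among them C1qa, C1qb and C1qc, the genes of the recognition subunit C1q.

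**Figure D5:**
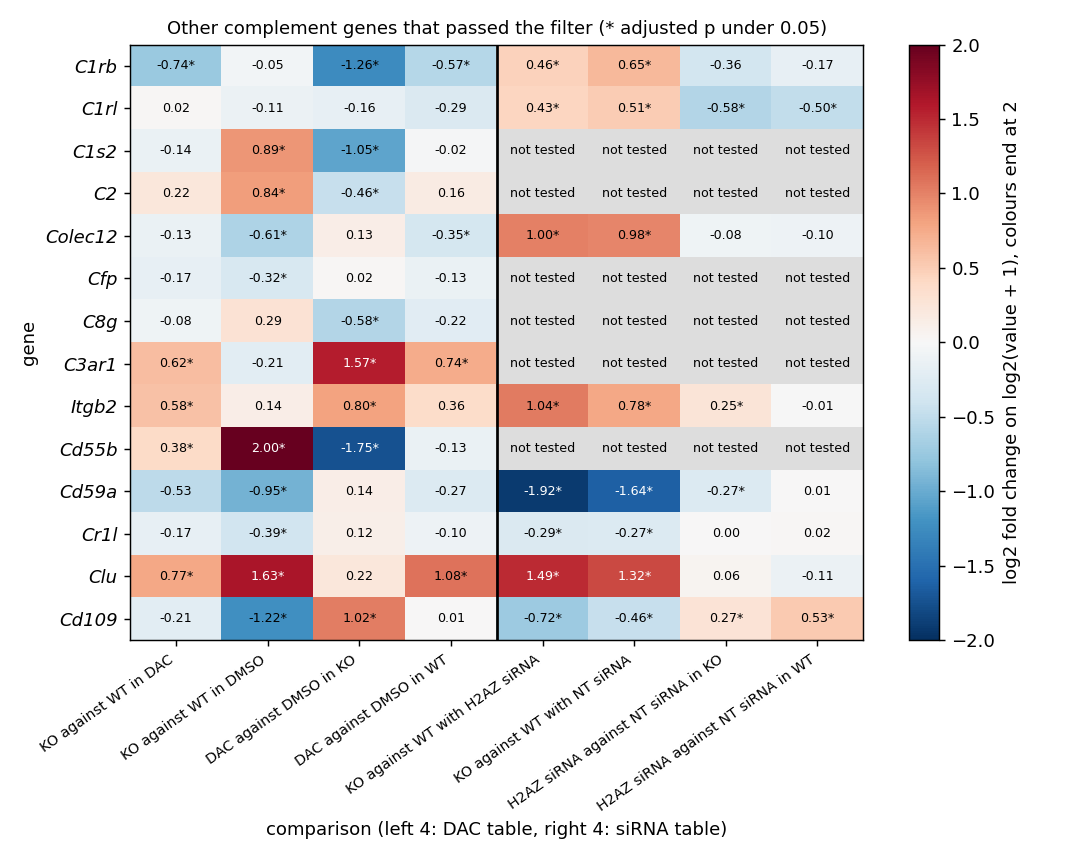
log2 fold changes of tested complement genes outside the 8, one row a gene and one column a comparison. Called changes (limma adjusted p under 0.05) are marked. C1s2, C2 and Cd55b are positive for KO against WT in DMSO and negative for DAC in KO, while C3ar1 is positive for DAC in both genotypes. C1s2, C2 and Cd55b would have failed the filter without the KO libraries with DMSO, and C3ar1 without the DAC libraries. These directions were thus bound up with the filter.

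Genes of cytokines, receptors and transcription factors known to drive complement transcription were listed, 23 of 30 tested in each table. In DMSO 6 were higher and 9 lower in KO, beside 19.6% and 22.9% of all genes, and with DAC 10 were lower, beside 11.6%, and the other 13 not called. DAC raised 9 and lowered 4 in KO, beside 23.7% and 21.6%, and raised 11 and lowered 1 in WT, beside 14.5% and 13.8%. Cebpd, the gene of a factor that binds the C3 promoter in human liver cells, had the same order of groups as C3, with means of 13 FPKM in KO with DAC, 22.3 FPKM in KO with DMSO, 21.4 FPKM in WT with DAC and 10.3 FPKM in WT with DMSO. Its DAC effects differed between the genotypes (-1.70 ± 0.31 SE, limma adjusted p = 0.0043). Stat3, the gene of an acute-phase factor, was named with Cebpd after the values were seen. It averaged 14.8 FPKM in KO with DAC, 22.9 FPKM in KO with DMSO, 15.7 FPKM in WT with DAC and 15.4 FPKM in WT with DMSO, and fell with DAC in KO (-0.60 ± 0.07 SE, limma adjusted p = 2e-04). With H2AZ siRNA 9 of 23 were higher and 7 lower in KO, beside 20.2% and 42.7%, and with NT siRNA 10 were higher and 6 lower, beside 23.7% and 40.4%.

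Chromosome neighbours gave another measure beside the members. The tested genes of the MHC class III region around C4b and Cfb were all higher in KO in the siRNA table, 13 of 13 with either siRNA, at a median log2 fold change of 0.42 with H2AZ siRNA and 0.43 with NT siRNA. Over all tested genes 20.2% and 23.7% were higher, and over the 579 tested genes of chromosome 17 as a whole 45.6% and 48.7%, at medians of 0.14 and 0.16. Listed neighbours of C1ra and C1s1 were higher in KO for 6 of 7 with either siRNA, beside 25.5% with H2AZ siRNA and 31.2% with NT siRNA of the 565 tested genes of chromosome 6. In the DAC table fewer of them passed: in DMSO 2 of 16 were higher and 3 lower in KO around C4b, and 2 of 8 higher around C1ra, beside 20.4% and 19% of chromosome 17 higher and lower and 36.2% of chromosome 6 higher. These counts hold complement genes themselves. Those higher with either siRNA included C1rb, the near copy of C1ra, and C1rl, which passed the filter through NT siRNA libraries alone. Those higher in DMSO included C2 around C4b and C1s2, the near copy of C1s1. The part of the neighbourhood in the C1ra and C1s1 results was not tested.

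The KO cells also differed from the WT cells in marker genes of mesothelium, the cell layer that lines body cavities, which is known to make complement. The summed level of the 10 listed mesothelial markers was 122 to 143 FPKM in KO with DAC, 1030 to 1060 FPKM in KO with DMSO, 43 to 57 FPKM in WT with DAC and 10.1 to 12.1 FPKM in WT with DMSO. It was 181 to 194 RPKM in KO with H2AZ siRNA, 195 to 221 RPKM in KO with NT siRNA, 22.8 to 23.2 RPKM in WT with H2AZ siRNA and 22.1 to 23.5 RPKM in WT with NT siRNA. Lrrn4 and Gpm6a were at 0 in WT with DMSO, and Upk1b and Wt1 in WT with either siRNA. Markers at 0 in WT could enter the test only through other groups, so no count of calls is given. The part of these genes' cells in the complement result was not tested, and in bulk RNA fewer cells of a type and less RNA per cell cannot be told apart. The 12 fibroblast markers summed to 1840 to 2040 FPKM in KO with DAC, 2070 to 2100 FPKM in KO with DMSO, 2240 to 2400 FPKM in WT with DAC and 3400 to 3520 FPKM in WT with DMSO. In the siRNA table the order of the genotypes was the other way, with 2270 to 2510 RPKM over the KO libraries and 1660 to 1770 RPKM over the WT libraries. In DMSO 2 of 11 tested were higher and 7 lower in KO, beside 19.6% and 22.9% of all genes. With either siRNA 7 of 10 were higher and 1 lower. The shares of all genes were 20.2% and 42.7% with H2AZ siRNA and 23.7% and 40.4% with NT siRNA. The part of the fibroblast markers in the complement results was not tested. Hepatocyte markers summed to at most 0.979 FPKM and 1.08 RPKM. Macrophage markers summed to 10.8 to 19.7 FPKM and 3.29 to 6.86 RPKM, with Adgre1 and Tyrobp at 0 in the DAC table.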

How the data were processed

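Both deposited RNA tables list the same 43432 Ensembl genes. Values in the DAC table are FPKM computed by the authors and deposited in that unit, and values in the siRNA table are RPKM computed by the authors. Libraries were stranded total RNA, sequenced in pairs, per the labels' protocols. STAR, Bowtie2, deepTools and mm10 are named without roles or versions, per the submitters' processing notes. For the read counter, annotation, strand setting and scaling total, no source used here gives an answer. Symbols and positions came from RefSeq GRCm38.p6, the same assembly as mm10, and 42462 genes (97.8%) had a symbol.

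A gene entered the test if it reached 1 FPKM in 2 or more libraries (16435 genes) or 1 RPKM in 3 or more (12668 genes). The test was limma 3.58.1 in R 4.3.3, with an intensity trend, on log2 of the value plus a pseudocount of 1, with 1 fit over the 4 groups of a table. Calls were made at a Benjamini-Hochberg adjusted p under 0.05 over all tested genes of a contrast, and the script was tested on simulated data. Other steps used Python 3.11.15, numpy 2.4.6, pandas 2.3.3 and matplotlib 3.10.9. Reads were recovered from the steps between values: 35023 of 35023 genes above 0 came out whole within 0.01.

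The 8 genes and all lists were chosen with earlier results of these data known. Named were the 8 genes, and of the other complement genes the largest called changes (up to 4 higher and 4 lower a comparison), the near copies and C3ar1 and C5ar1, with part of these printed. Of regulators, neighbours and markers up to 2 each way were eligible. Likeness names came from the highest correlations. Alternatives were limma-voom on the recovered reads, leaving out each library or the pair of each table that stands apart, fitting only the libraries compared, a replicate block, median centring, filters at 5 and at none, and a pseudocount of 0.1. Same-numbered libraries deviated together in each pair for H2AZ siRNA against NT siRNA in KO (r = 0.156, 0.144 and 0.270). Each pair was also positive for KO against WT with NT siRNA (0.319, 0.109 and 0.023) and with H2AZ siRNA (0.045, 0.037 and 0.074). So were those for DAC against DMSO in KO (0.085 and 0.061) and KO against WT in DMSO (0.005 and 0.005). In the other comparisons the sign varied between pairs. Of the other complement genes, 1 that is counted is not reported here by name. An identity check of proteins of near copies was not run.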

Additional observations from a re-analysis of the deposited data

Results flagged for a closer look

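The effect of DAC differed between KO and WT cells for 6 of the 7 tested complement genes, by a test of the difference itself (limma, adjusted over all genes). Over all tested genes 24.1% were called, with 11.7% called lower in KO and 12.4% higher. The C4b call (limma adjusted p = 0.043) was lost when any 1 of 7 libraries was left out: KO DAC replicate 1 or 2, KO DMSO replicate 2, WT DMSO replicate 1 or any WT library with DAC (limma adjusted p between 0.067 and 0.17). The DAC effect in KO minus that in WT, on the log2 scale, was -4.83 for C3, -2.90 for Cd55, -1.48 for Serping1, -1.45 for C1s1, -0.63 for C4b and -0.58 for C1ra. For C3 and Serping1 the libraries moved in opposite directions in the genotypes without overlap, for C1ra they fell in both, and for C1s1, C4b and Cd55 the change in WT did not pass. The summed mesothelial markers were at 122 to 143 FPKM in KO with DAC and 1030 to 1060 FPKM in KO with DMSO. In WT they were at 43 to 57 FPKM with DAC and 10.1 to 12.1 FPKM with DMSO. By group means, Cd55 departed from this order only between the WT groups, whose libraries overlapped. C3 and Serping1 departed from it only between KO with DAC and WT with DAC. C1ra, C1s1 and C4b departed from it in more places. The part of the mesothelial markers in these differences was not tested.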

How the results depend on the processing

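Of 65 effects of the complement genes, 44 passed the threshold, and 35 of these 44 passed in every alternative run that tested them. The higher alternative filter left C3, Serping1 and Cd55 of the siRNA table and C4b of the DAC table untested, so their effects were not checked under it. Over 1197 recomputed values 70 lost the threshold, 15 gained it and 17 changed sign. The sign changes were all of effects that did not pass. With 1 library left out, C1ra ranged from -0.23 to 0.03 for KO against WT in DMSO, and C1s1 from -0.09 to 0.08 and Masp1 from -0.30 to 0.02 for KO against WT with DAC. So did Serping1 from -0.06 to 0.05 for H2AZ siRNA in WT and Masp1 from -0.04 to 0.04 for the difference of siRNA effects. Without the libraries that stand apart C1s1 was 0.07 for KO against WT with DAC and Serping1 0.05 for H2AZ siRNA in WT. Median centring gave 0.00 for C3 and 0.04 for Serping1 for H2AZ siRNA in WT and 0.03 for Masp1 for the difference of siRNA effects, and limma-voom gave -0.01 for Cd55 there. The causes of the changes below were not tested, apart from fewer genes or libraries entering a fit.

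Called members numbered 3 instead of 5 for KO against WT with DAC when only the libraries compared were fitted, and 3 instead of 6 for KO against WT with either siRNA under a filter at 5, where fewer members were tested. For H2AZ siRNA in WT they numbered 1 instead of 2 with a pseudocount of 0.1, median centring, limma-voom and the replicate block, and 0 with no filter and without the libraries that stand apart. For H2AZ siRNA in KO they numbered 1 instead of 3 with no filter. The replicate block moved only that count of members in WT, and the count of all genes for the difference of siRNA effects, 2 instead of 1. With a filter at 5 the other complement genes called were 4 instead of 10 for KO against WT in DMSO, 3 instead of 6 with DAC, 2 instead of 9 for DAC in KO, 4 instead of 9 for the difference of DAC effects, 2 instead of 8 for KO against WT with either siRNA, and 1 for H2AZ siRNA in WT (instead of 2) and in KO (instead of 4). With no filter they were 13 instead of 8 for KO against WT with either siRNA and 1 instead of 4 for H2AZ siRNA in KO. Without the libraries that stand apart they were 1 for H2AZ siRNA in WT and in KO, and 1 in KO with only the libraries compared, where all genes called were 2093 instead of 3235. All genes called for the difference of siRNA effects were 0 with no filter and without the libraries that stand apart, 2 with a filter at 5 and with limma-voom, and 3 with median centring.

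With 1 library left out, the other complement genes called ranged from 6 to 10 for KO against WT in DMSO, 5 to 10 for DAC in KO, 5 to 9 for the difference of DAC effects and 1 to 4 for H2AZ siRNA in KO. Called members ranged from 0 to 2 for H2AZ siRNA in WT and 1 to 4 in KO. All genes called ranged from 2389 to 4943 for DAC in WT, 4890 to 7944 for DAC in KO, 2275 to 4026 for the difference of DAC effects, 1127 to 2113 for H2AZ siRNA in WT, 2130 to 3446 in KO and 0 to 2 for the difference of siRNA effects. Depth limits Cfb in both tables and C4b in the siRNA table.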

Other observations

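Serping1, the gene of C1 inhibitor, was also set against C1s1, the gene of the protease it blocks, in a ratio chosen after the values were seen and given without a test. It averaged 0.502 ± 0.0474 in KO with DAC and 0.273 ± 0.00236 in KO with DMSO, and 0.638 ± 0.0815 in WT with DAC and 0.311 ± 0.0332 in WT with DMSO (SD, n = 3 with DAC and n = 2 with DMSO). With DAC the inhibitor thus stood higher relative to the protease in both genotypes, without overlap between libraries. With H2AZ siRNA the ratio was 0.303 ± 0.0182 in KO and 0.519 ± 0.0883 in WT, and with NT siRNA 0.406 ± 0.019 in KO and 0.305 ± 0.017 in WT (SD, n = 3). The H2AZ siRNA libraries thus lay below the NT siRNA libraries in KO and above them in WT.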
